A study of Homo sapiens and Mus musculus with 36 samples.

Results

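HepG2 cells, a human liver cancer line, exposed for 48 h to 5 uM MS7126 were set against HepG2 cells kept in DMSO for the same time. The genes described are those with a mean normalized count of at least 10 in the authors' deposited table for this pair of groups, 14684 of the 18735 genes it lists, and 12923 of them carry an adjusted p. The comparison rests on 4 of the 36 libraries of the series, 2 with MS7126 and 2 with DMSO. MS7126 is named in the series as a PROTAC against EZH2, C24 as the inhibitor matched to it, and MS7126N1 and MS7126N2 as its analogs without PROTAC activity. Each of these 3 compounds was also given to HepG2 at 5 uM for 48 h, with 2 libraries each and the same 2 DMSO libraries as reference. All HepG2 cells grew in RPMI1640 with fetal serum and antibiotics. RNA libraries were made with either of 2 kits, and which kit made which library is not given in the sources used here. HepG2 is a single tumour line. Nothing in the labels tells whether both libraries of a group stem from cultures of their own. The p-values therefore reflect the spread between libraries alone, and that spread may be technical.

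EZH2 is the catalytic subunit of Polycomb repressive complex PRC2, which places methyl groups on lysine of histone H3 and holds genes silent. A PROTAC binds its target and an E3 ubiquitin ligase at once, so that the target protein is ubiquitinated and degraded, whereas an inhibitor leaves the protein in place. SREBP2, made from SREBF2, is the membrane-bound factor that is cleaved when sterols run low and then switches on cholesterol synthesis. The integrated stress response lowers general translation through phosphorylation of eIF2 and raises ATF4, which drives genes of amino acid supply and tRNA charging.

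Only the authors' deposited table gives values for this comparison, with 1 mean, fold change, standard error (SE) and p per gene, so levels are shown per group and no value per library can be given. Group levels were rebuilt from each gene's mean and fold change. Over 9418 genes, the DMSO level rebuilt here and the one rebuilt from the C24 table, which shares the DMSO libraries, had a log2 ratio with an interquartile range of 0.0454, against 0.636 with the sign of the MS7126 table turned, so positive log2 fold changes mean higher under MS7126. The mean normalized counts summed to 16788277, of which 31.5% belonged to the 37 genes of the mitochondrial genome and 4.75% to 5 genes whose names start with CH507. The 10 hepatocyte-line markers were all measured, with summed levels of 129877 under MS7126 and 257359 under DMSO. Of 10 markers each, 2 endothelial, 3 macrophage, 2 lymphocyte and 5 fibroblast genes reached a mean of 10, and VWF, CDH5, CD163, MARCO, CD3E, DCN and LUM did not. The summed levels of the measured ones under MS7126 and under DMSO were 38.8 and 56.9 for endothelium and 36.5 and 51.3 for lymphocytes. For fibroblasts they were 1717 and 1557, and for macrophages 5635 and 9246, nearly all of it LYZ, at -0.71 (SE 0.16) in the authors' deposited table, and CD68. Their part in the results was not tested. In bulk RNA, fewer cells of a kind and less RNA per cell cannot be told apart.

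RNA levels of 2004 genes differed between MS7126 and DMSO at the authors' adjusted p under 0.05: 962 were higher (7.44% of the 12923 tested) and 1042 lower (8.06%). In the authors' deposited table, 428 of the higher and 422 of the lower genes differed at least 2-fold, and the median log2 fold change over all tested genes was 0.01. Genes of cholesterol synthesis, DNA replication, mitosis and plasma protein secretion were among the lower ones, and genes of the integrated stress response, amino acid supply, tRNA charging and glutathione defence among the higher ones. Each gene list is described by how many of its members passed the test, to be read beside these 2 shares, and by its median.

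**Figure D1:**
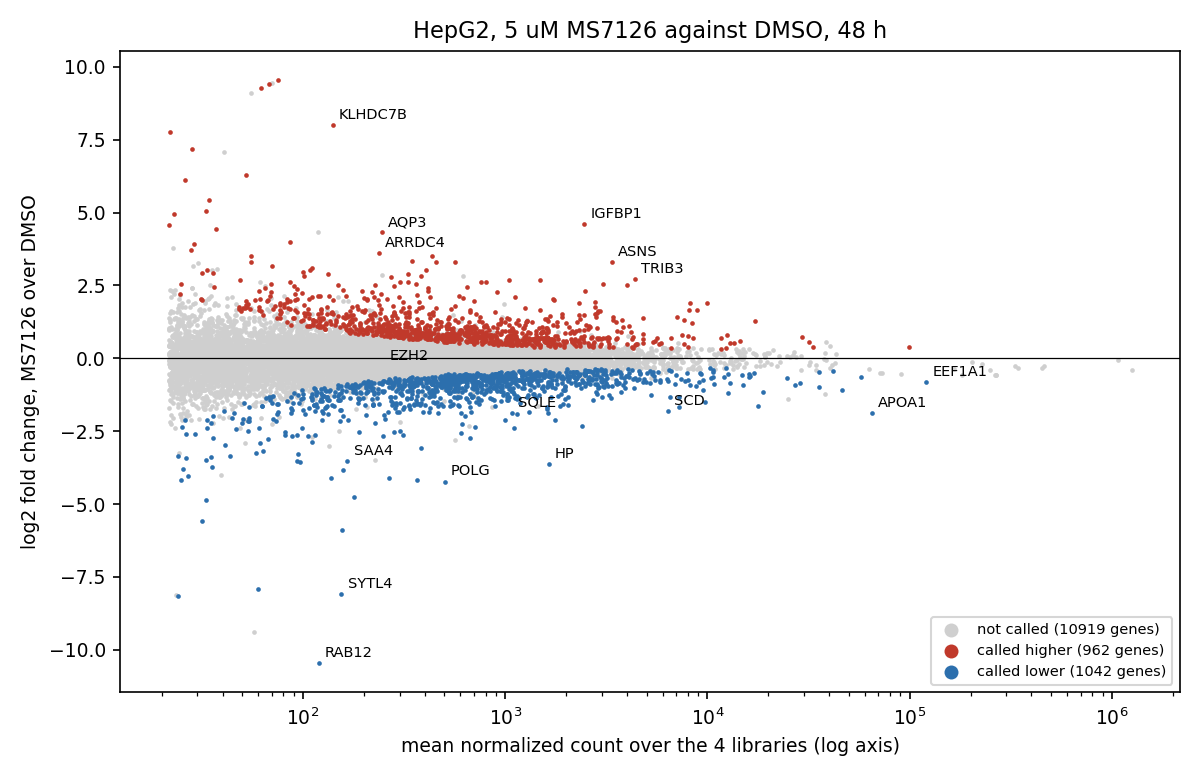
Mean normalized count over the 4 libraries (log axis) against the log2 fold change of MS7126 over DMSO for the 12923 tested genes, 962 called higher in red, 1042 called lower in blue and the rest in grey. Changes of the largest size, such as RAB12 at -10.46 and KLHDC7B at 8.01, sit at low means, while IGFBP1, ASNS, HP and APOA1 moved at means of 2465, 3361, 1637 and 64800.4.

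**Figure D2:**
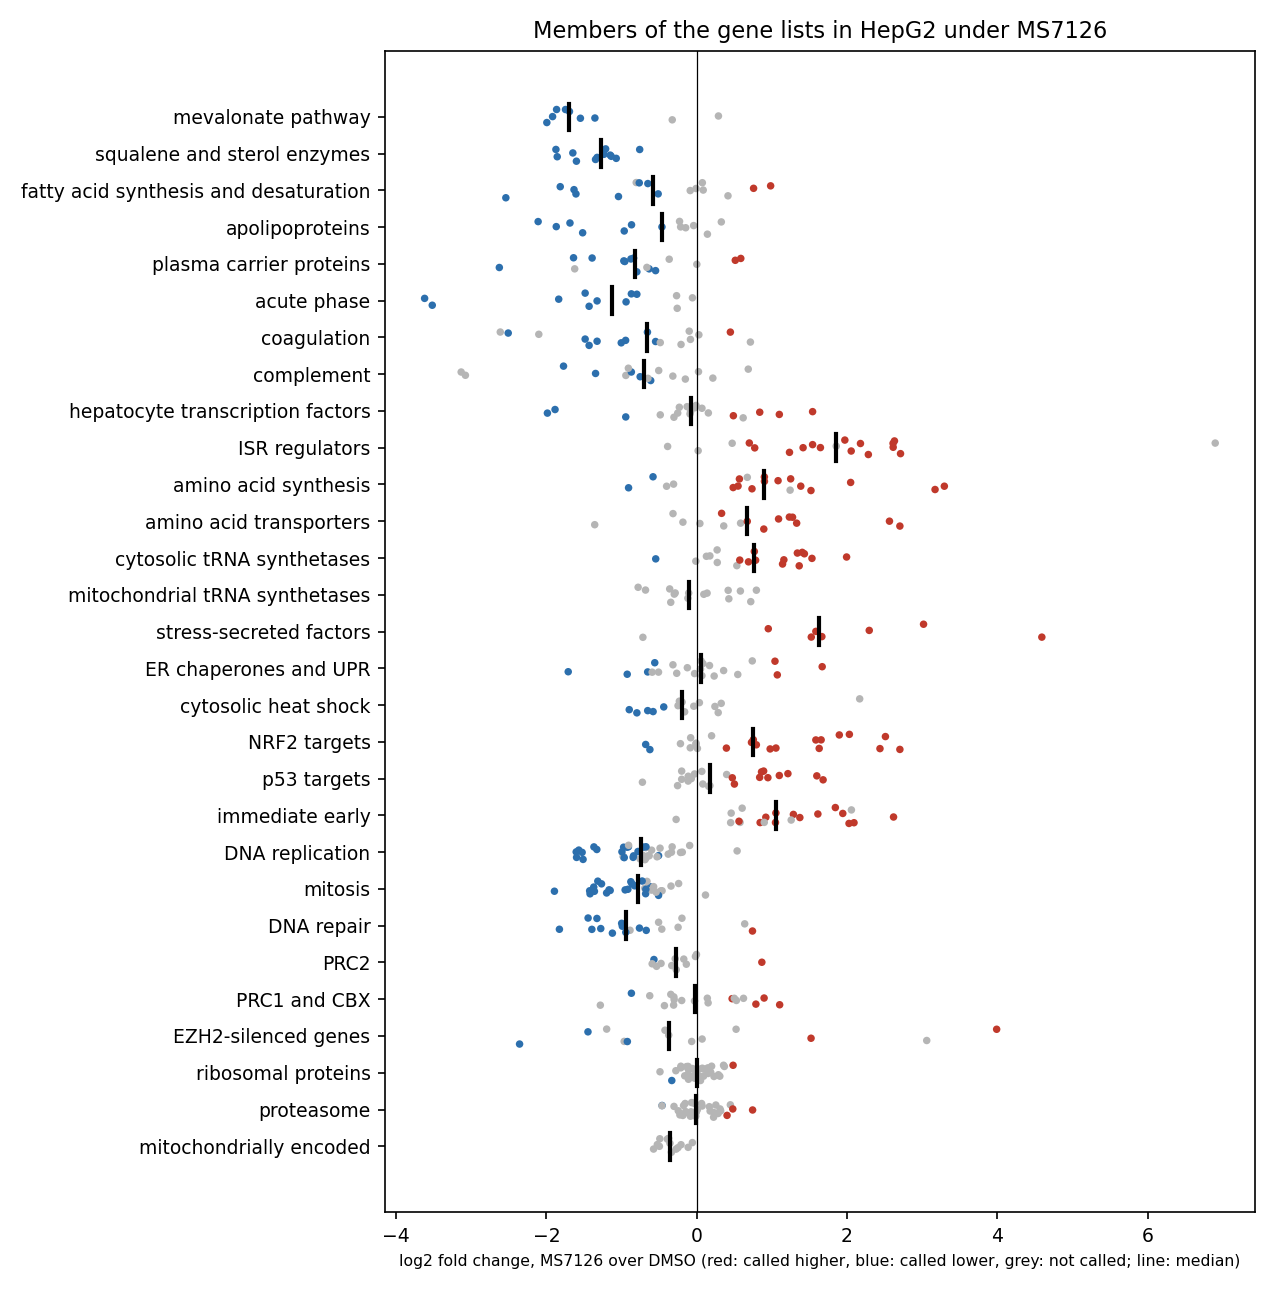
Log2 fold change of MS7126 over DMSO for every measured member of 29 gene lists, 1 point per gene, red where called higher, blue where called lower, grey where not called, with the median as a black line. The 2 cholesterol lists lie left of 0 with medians of -1.69 and -1.28, the ISR regulators and stress-secreted factors lie right of it with medians of 1.86 and 1.63, and the ribosomal proteins sit around 0 with a median of 0.01.

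The gene of the compound's target was read first. EZH2 (GRCh38, chr7:148807383-148884321, minus strand) had a rebuilt level of 226 normalized counts under MS7126 and 275 under DMSO, a log2 fold change of -0.29 (SE 0.27) in the authors' deposited table with an adjusted p of 0.58, and did not pass the test. A PROTAC acts on protein, so this level is no check of the treatment. For the other compounds, all set against the same DMSO libraries, EZH2 was at -0.28 (SE 0.26) with C24, -0.30 (SE 0.31) with MS7126N1 and -0.25 (SE 0.28) with MS7126N2 in the authors' deposited tables. The differences of MS7126 from these 3 were -0.00 (SE 0.38, 95% interval -0.75 to 0.74), 0.01 (SE 0.41, 95% interval -0.80 to 0.82) and -0.04 (SE 0.39, 95% interval -0.81 to 0.73). None passed the threshold.

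Cholesterol synthesis was lower along nearly its whole length. In the authors' deposited table, 7 of the 9 mevalonate pathway genes and 12 of the 12 squalene and sterol enzymes fell and none rose, with medians of -1.69 and -1.28 against 0.01 over all tested genes. At the head of the pathway ACAT2, which makes acetoacetyl-CoA, fell by 1.92 (SE 0.16) and HMGCS1, which acts next, by 1.86 (SE 0.24) on the log2 scale in the authors' deposited table. Further on came the mevalonate kinase MVK at -1.75 (SE 0.26), the decarboxylase MVD at -1.35 (SE 0.29), the isomerase IDI1 at -1.69 (SE 0.26) and the farnesyl diphosphate synthase FDPS at -1.55 (SE 0.18) in the authors' deposited table. The 2 members that did not pass were PMVK, the phosphomevalonate kinase, at -0.33 (SE 0.37), and GGPS1, which leads off to protein prenylation, at 0.29 (SE 0.24) in the authors' deposited table. GGPS1 was the only gene of the 21 with a positive value.

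In the sterol branch the largest falls were at SQLE, the squalene epoxidase, and MSMO1, a C4 demethylase. SQLE had 462 normalized counts under MS7126 and 1692 under DMSO, and MSMO1 had 293 normalized counts under MS7126 and 1060.4 under DMSO. Their log2 fold changes in the authors' deposited table were -1.87 (SE 0.16) and -1.86 (SE 0.21). Other enzymes fell by less. FDFT1, which makes squalene, stood at -1.60 (SE 0.17), the lanosterol synthase LSS at -1.65 (SE 0.34), CYP51A1 at -1.14 (SE 0.17) and DHCR7 at -1.32 (SE 0.14) in the authors' deposited table. Every one of the 12 had a rebuilt level under MS7126 below that under DMSO, and their summed levels were 9893 under MS7126 and 22225 under DMSO.

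**Figure D3:**
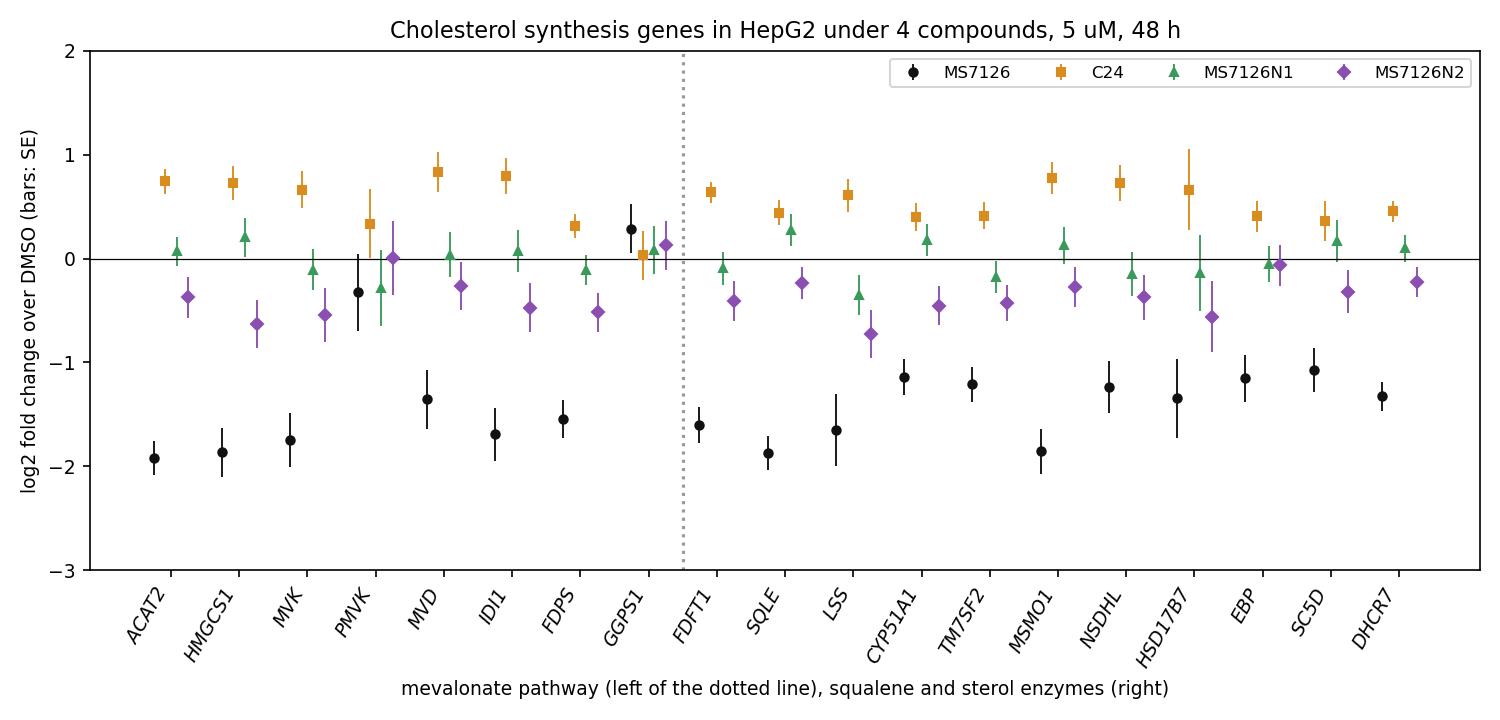
Log2 fold change over DMSO with its SE for 8 of the 9 mevalonate pathway genes (left of the dotted line) and 11 of the 12 squalene and sterol enzymes in pathway order, under MS7126, C24, MS7126N1 and MS7126N2 in HepG2. MS7126 lies lowest for 18 of the 19 genes shown and C24 lies above 0 for all of them, with medians over all 9 mevalonate genes of -1.69 for MS7126, 0.66 for C24, 0.07 for MS7126N1 and -0.47 for MS7126N2.

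Most of the mevalonate genes, and between 6 and 12 of the 12 sterol enzymes, were lower under MS7126 than under each of the 3 other compounds. Each difference of 2 log2 fold changes was divided by the root of the summed squared SEs and tested two-sided, with p-values adjusted over the genes of all 3 pairs together. The test of MS7126 minus C24 found lower values under MS7126 for 7 of the 9 mevalonate genes and 12 of the 12 sterol enzymes, where 3.45% of the 14335 genes compared were lower and 2.27% higher. Against MS7126N1 it found 7 and 11 lower, where 2.59% of the 14352 genes compared were lower and 1.74% higher, and against MS7126N2 6 and 6, where 1.52% of 14315 were lower and 0.796% higher. None of the 21 was higher in any of the 3 differences. SQLE differed by -2.32 (SE 0.20, 95% interval -2.71 to -1.92) from C24, by -2.15 (SE 0.23, 95% interval -2.59 to -1.70) from MS7126N1 and by -1.64 (SE 0.23, 95% interval -2.08 to -1.20) from MS7126N2. For GGPS1 the 3 differences were 0.26 (SE 0.34, 95% interval -0.40 to 0.92), 0.20 (SE 0.33, 95% interval -0.45 to 0.85) and 0.16 (SE 0.34, 95% interval -0.50 to 0.82), and all 3 intervals include 0. The side by side medians of the sterol enzymes were -1.28 for MS7126, 0.45 for C24, -0.01 for MS7126N1 and -0.35 for MS7126N2 in the authors' deposited tables, which share their DMSO libraries.

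Of the machinery that controls the pathway, 1 gene passed the test. SREBF2 had 639 normalized counts under MS7126 and 1284 under DMSO, a log2 fold change of -1.01 (SE 0.17) in the authors' deposited table, and the other 6 measured members did not pass. Its relative SREBF1 stood at -0.26 (SE 0.20), the escort protein gene SCAP at 0.05 (SE 0.16) and the protease genes MBTPS1 and MBTPS2 at 0.19 (SE 0.16) and 0.10 (SE 0.30) in the authors' deposited table. INSIG1, which retains SCAP in the endoplasmic reticulum, was too variable to place, at 0.99 (SE 1.58) in the authors' deposited table. Among 11 genes of LDL uptake and sterol transport, 5 fell and none rose. The sigma-2 receptor gene TMEM97 stood at -1.35 (SE 0.17), the lysosomal sterol carrier gene NPC2 at -1.13 (SE 0.18) and the lysosomal lipase gene LIPA at -1.02 (SE 0.23) in the authors' deposited table. NPC1, the membrane partner of NPC2, was at 0.49 (SE 0.30) in the authors' deposited table and did not pass. Of 6 measured genes of the LXR receptors and efflux, NR1H2 rose, with 0.69 (SE 0.23), and the exporter gene ABCA1 fell, with -0.91 (SE 0.24), in the authors' deposited table.

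Promoter stretches of 5 of these cholesterol genes show a feature that the choice of genes did not use, the CCAAT box bound by NF-Y. Sequences are from RefSeq (GRCh38.p14), read 5′ to 3′ on the strand of the gene, with the first match of CCAAT or its reverse complement in capitals and up to 26 bases on each side. They lie at chr5:43313537-43313593 (minus strand) for HMGCS1, chr16:88663220-88663276 (minus strand) for MVD, chr21:46228894-46228950 (minus strand) for LSS, chr4:165327458-165327514 (plus strand) for MSMO1, chr11:121292689-121292745 (plus strand) for SC5D.
HMGCS1: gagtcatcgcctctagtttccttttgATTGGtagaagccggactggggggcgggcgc
MVD: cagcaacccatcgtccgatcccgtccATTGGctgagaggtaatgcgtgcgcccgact
LSS: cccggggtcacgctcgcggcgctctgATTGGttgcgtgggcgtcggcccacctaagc
MSMO1: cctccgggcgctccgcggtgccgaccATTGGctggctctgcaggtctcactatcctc
SC5D: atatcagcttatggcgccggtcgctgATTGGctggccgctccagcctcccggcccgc
Within 250 bases before and 50 after a listed start, CCAAT on either strand was present for 6 of 7 mevalonate genes and 8 of 9 sterol enzymes with a promoter entry, against 43.4% of the 9506 tested genes with an entry and 39.7% of all 27305 genes of the promoter table. The sterol element letters TCACNCCAC and the core CACCCCAC, searched on both strands, were found in none of the 16, against 1.45% and 3.55% of the tested genes. Of the SREBP machinery 1 gene, SREBF2, held both. Only these exact letters were searched, so looser forms of the element would be missed, and binding was not measured. A gene counted as a match where any of its listed starts had one. With the first listed start alone, CCAAT was present for 4 of 7 mevalonate genes and 8 of 9 sterol enzymes. The box is not particular to these genes. It was also present for 20 of 21 genes of ER chaperones, whose median was 0.05, and for 7 of 8 genes of the TXNIP list.

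Lipid genes outside cholesterol were mixed. Of 16 measured genes of fatty acid synthesis and desaturation, 8 fell and 2 rose in the authors' deposited table, with a median of -0.58. The desaturases were among the lowest. SCD, which makes monounsaturated fatty acids, had 2809.5 normalized counts under MS7126 and 9889.8 under DMSO. SCD, FADS1 and FADS2 stood at -1.82 (SE 0.12), -1.63 (SE 0.15) and -1.61 (SE 0.20) in the authors' deposited table. FASN, the fatty acid synthase, fell by less, with 5741 normalized counts under MS7126 and 9752 under DMSO, -0.76 (SE 0.17) in the authors' deposited table. The carboxylase gene ACACA stood at -0.09 (SE 0.28) and the elongase gene ELOVL6 at 0.09 (SE 0.36) in the authors' deposited table, neither past the test. The 2 that rose activate fatty acids, ACSL1 at 0.98 (SE 0.22) and ACSL3 at 0.76 (SE 0.25) in the authors' deposited table. PNPLA3, a lipid droplet hydrolase, was the lowest member, at -2.54 (SE 0.35) in the authors' deposited table. SCD differed from C24 by -2.36 (SE 0.15, 95% interval -2.66 to -2.07), from MS7126N1 by -1.97 (SE 0.17, 95% interval -2.30 to -1.63) and from MS7126N2 by -1.57 (SE 0.18, 95% interval -1.91 to -1.22).

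Among 19 triglyceride and lipid droplet genes, 5 fell and 2 rose. ANGPTL8, an inhibitor partner of lipoprotein lipase, had 626 normalized counts under MS7126 and 62.4 under DMSO. ANGPTL8 and the droplet coat gene PLIN2 rose, at 3.33 (SE 0.29) and 0.80 (SE 0.15) in the authors' deposited table. The hepatic lipase gene LIPC stood at -1.84 (SE 0.26), MTTP, which loads lipid onto apolipoprotein B, at -1.07 (SE 0.19) and the acyltransferase gene DGAT1 at -0.74 (SE 0.16) in the authors' deposited table. Of 16 genes of fatty acid oxidation and ketogenesis, 5 fell and none rose. The fatty acid carrier gene FABP1 and the receptor gene PPARA fell, at -2.26 (SE 0.22) and -1.13 (SE 0.30) in the authors' deposited table. CPT1A and HADHA, of the oxidation itself, stood at -0.38 (SE 0.27) and 0.01 (SE 0.15) in the authors' deposited table and did not pass. ACOT1 and ACOT2, near-identical thioesterase genes, fell, at -1.36 (SE 0.32) and -0.90 (SE 0.17) in the authors' deposited table, and their reads may be split between them.

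Genes of the integrated stress response rose. In the authors' deposited table, 14 of 19 regulators were higher and none lower, with a median of 1.86, the highest of the 62 lists. ATF4, the central factor, had 8134 normalized counts under MS7126 and 5008 under DMSO, 0.70 (SE 0.12) on the log2 scale in the authors' deposited table. DDIT3, the factor CHOP, had 517 normalized counts under MS7126 and 83.4 under DMSO, 2.63 (SE 0.30) in the authors' deposited table. TRIB3, a pseudokinase that restrains ATF4, had 7572 normalized counts under MS7126 and 1156 under DMSO, 2.71 (SE 0.14) in the authors' deposited table. Feedback genes were thus among those that rose. PPP1R15A, the inducible subunit that dephosphorylates eIF2, was at 2.28 (SE 0.19) in the authors' deposited table. ATF3 stood at 2.18 (SE 0.39), SESN2, a leucine sensor, at 2.06 (SE 0.21), DDIT4, an inhibitor of mTORC1, at 2.61 (SE 0.23) and the heterodimer partner CEBPG at 1.42 (SE 0.33) in the authors' deposited table. Of the 4 kinases that phosphorylate eIF2, the ER kinase EIF2AK3 rose, at 1.97 (SE 0.72) in the authors' deposited table. The heme-regulated EIF2AK1, the RNA-activated EIF2AK2 and the amino acid sensor EIF2AK4 stood at 0.02 (SE 0.18), -0.39 (SE 0.22) and 0.47 (SE 0.19) in the authors' deposited table and did not pass. CHAC1, a glutathione-degrading enzyme, was fitted at 6.90 (SE 1.93) in the authors' deposited table from a rebuilt level of 23.7 under MS7126 and 0.199 under DMSO, with no adjusted p. Its size is uncertain.

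The composite element read by ATF4 with a C/EBP partner, TGATGNAA, was looked for in the promoters of these genes, and 8 stretches show where it lies. They come from RefSeq (GRCh38.p14), 5′ to 3′ on the strand of the gene, with the element or its reverse complement in capitals and up to 26 bases on each side, none past the start. Their positions are chr7:97872443-97872502 (minus strand) for ASNS, chr15:40953236-40953295 (plus strand) for CHAC1, chr19:33374045-33374104 (plus strand) for CEBPG, chr10:99430789-99430848 (minus strand) for GOT1, chr6:150866331-150866390 (plus strand) for MTHFD1L, chr16:70289660-70289719 (minus strand) for AARS, chr7:30594819-30594877 (plus strand) for GARS, chr19:46784878-46784937 (minus strand) for SLC1A5.
ASNS: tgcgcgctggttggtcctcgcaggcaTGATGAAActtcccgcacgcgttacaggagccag
CHAC1: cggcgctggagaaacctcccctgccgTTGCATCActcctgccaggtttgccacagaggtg
CEBPG: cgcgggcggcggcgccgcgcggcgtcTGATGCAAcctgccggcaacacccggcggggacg
GOT1: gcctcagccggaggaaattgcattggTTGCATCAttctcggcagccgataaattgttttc
MTHFD1L: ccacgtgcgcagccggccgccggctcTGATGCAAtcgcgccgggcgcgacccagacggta
AARS: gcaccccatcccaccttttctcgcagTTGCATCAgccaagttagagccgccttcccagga
GARS: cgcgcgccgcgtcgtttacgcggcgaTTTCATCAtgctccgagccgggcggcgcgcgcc
SLC1A5: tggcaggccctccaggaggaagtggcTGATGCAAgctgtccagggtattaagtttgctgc
On either strand the element was found for 7 of 15 cytosolic tRNA synthetase genes with a promoter entry, 5 of 13 amino acid transporters, 3 of 10 genes of amino acid synthesis and 4 of 16 ISR regulators, against 1 of 13 mitochondrial synthetases. Over the tested genes with an entry the share was 2.71% (258 of 9506), over those called higher 5.46% (41 of 751) and over those called lower 2.73% (22 of 805), and 4.46% of all genes of the table held it. Counted from the start of the gene, the match begins at position -68 in ASNS and -42 in CEBPG. A match is a run of letters, and binding was not measured here.

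Amino acid supply rose with the regulators. Of 19 genes of amino acid synthesis, 13 rose and 2 fell, with a median of 0.90 in the authors' deposited table. ASNS (GRCh38, chr7:97852118-97872542, minus strand), the asparagine synthetase whose element is printed above, had 6100.3 normalized counts under MS7126 and 622 under DMSO, a log2 fold change of 3.29 (SE 0.17) in the authors' deposited table (adjusted p = 2.59e-77). The mitochondrial folate branch rose, with MTHFD2 at 1.52 (SE 0.13), SHMT2 at 1.25 (SE 0.15), MTHFD1L at 1.08 (SE 0.18) and ALDH1L2 at 3.17 (SE 0.59) in the authors' deposited table. The cytosolic partner of SHMT2, SHMT1, fell, at -0.91 (SE 0.21) in the authors' deposited table. For serine synthesis, PSAT1 and PSPH rose, at 0.90 (SE 0.15) and 0.55 (SE 0.20) in the authors' deposited table. PHGDH, the first enzyme, was at 1.24 (SE 0.53) in the authors' deposited table and did not pass. For proline synthesis, PYCR1 rose, at 0.74 (SE 0.17), and ALDH18A1, the first enzyme, fell, at -0.58 (SE 0.17) in the authors' deposited table. CTH and CBS of cysteine synthesis stood at 2.05 (SE 0.36) and 0.90 (SE 0.20) in the authors' deposited table, both higher.

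Of 15 measured amino acid transporters, 9 rose and none fell in the authors' deposited table. SLC7A11, the cystine importer, had 1799 normalized counts under MS7126 and 276 under DMSO. Its binding partner SLC3A2 had 5188 normalized counts under MS7126 and 2439 under DMSO. The log2 fold changes of the pair were 2.70 (SE 0.20) and 1.09 (SE 0.16) in the authors' deposited table. The glycine carrier SLC6A9 stood at 2.56 (SE 0.26), the glutamine carrier SLC1A5 at 1.33 (SE 0.12), the cationic carrier SLC7A1 at 1.23 (SE 0.17) and the leucine carrier SLC7A5 at 0.33 (SE 0.12) in the authors' deposited table, all higher. SLC7A11 differed from C24 by 2.76 (SE 0.33, 95% interval 2.11 to 3.41), from MS7126N1 by 2.64 (SE 0.33, 95% interval 1.99 to 3.28) and from MS7126N2 by 1.55 (SE 0.33, 95% interval 0.91 to 2.19).

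Most enzymes that charge tRNA in the cytosol rose. Of 19 measured cytosolic synthetase genes, 12 rose and 1 fell in the authors' deposited table, with a median of 0.77. None of 15 measured mitochondrial synthetases passed in either direction, with a median of -0.11 in the authors' deposited table. Of those 15, 2 had an unadjusted p under 0.05. WARS, the tryptophan enzyme, had 2783 normalized counts under MS7126 and 699 under DMSO, and WARS2, its mitochondrial counterpart, had 166 normalized counts under MS7126 and 202 under DMSO. WARS stood at 1.99 (SE 0.17) and WARS2 at -0.29 (SE 0.30) in the authors' deposited table. SARS and SARS2, for serine, stood at 1.53 (SE 0.16) and -0.30 (SE 0.28), and MARS and MARS2, for methionine, at 1.43 (SE 0.18) and 0.79 (SE 0.31) in the authors' deposited table. Not every cytosolic enzyme rose. DARS, HARS, KARS and VARS stood at -0.01 (SE 0.16), 0.13 (SE 0.19), 0.18 (SE 0.18) and 0.27 (SE 0.15) in the authors' deposited table, none past the test. QARS, for glutamine, was the 1 that fell, with 1911 normalized counts under MS7126 and 2789 under DMSO, -0.55 (SE 0.16) in the authors' deposited table (adjusted p = 0.00936). Of the cytosolic list 11 were higher than under C24, 9 higher than under MS7126N1 and 5 higher than under MS7126N2 by the tests of the differences, and none was lower. Of the mitochondrial list none differed from any of the 3. The mitochondrial genes had lower means and larger errors, with a median SE of 0.31 against 0.17, so a change of given size was harder to call there.

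**Figure D4:**
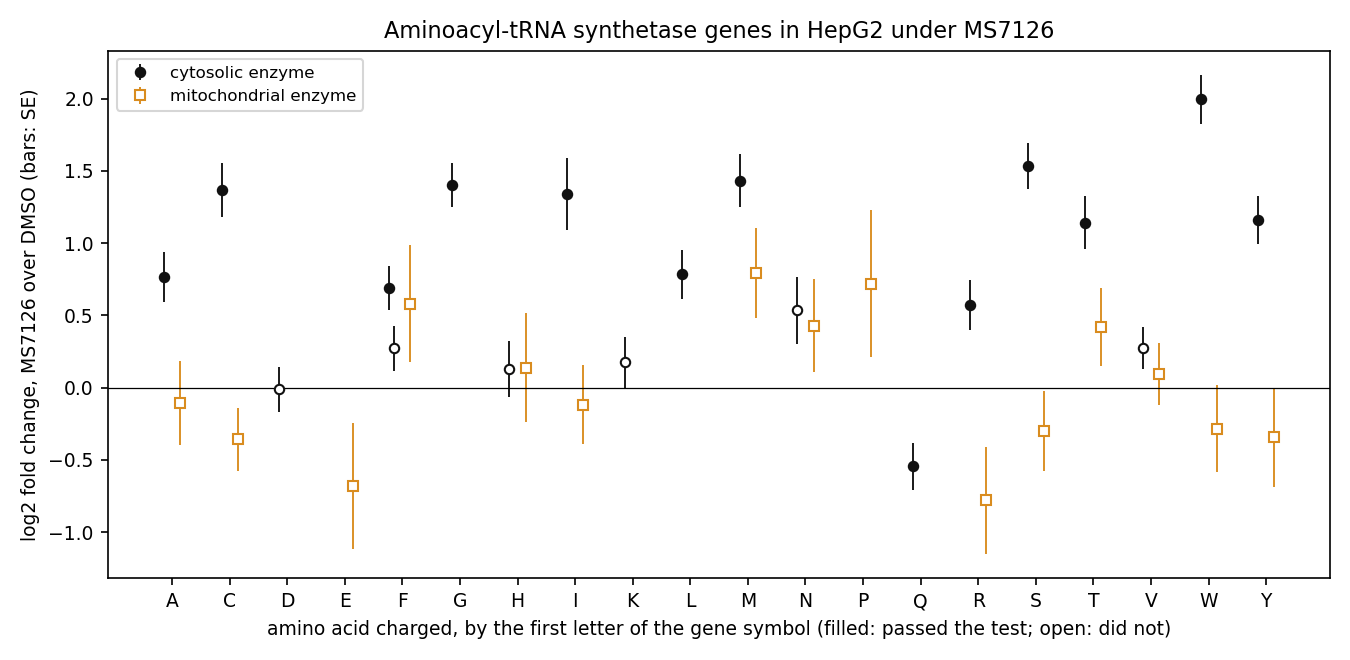
Log2 fold change of MS7126 over DMSO with its SE for aminoacyl-tRNA synthetase genes, by the amino acid charged, for cytosolic enzymes (black circles) and mitochondrial ones (orange squares), filled where the gene passed the test. The filled points are cytosolic, 12 above 0 up to WARS at 1.99 and QARS below at -0.55, and the mitochondrial points lie between -0.78 and 0.79.

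Secreted factors known to accompany this response rose as well, 7 of 8 measured and none lower. IGFBP1 (GRCh38, chr7:45888357-45893668, plus strand), a liver protein that binds insulin-like growth factors, had 4733 normalized counts under MS7126 and 196 under DMSO, a log2 fold change of 4.59 (SE 0.20) in the authors' deposited table (adjusted p = 8.47e-114). IGFBP1 was also higher than under C24 by 3.46 (SE 0.34, 95% interval 2.79 to 4.14), than under MS7126N1 by 4.16 (SE 0.39, 95% interval 3.40 to 4.92) and than under MS7126N2 by 3.63 (SE 0.36, 95% interval 2.92 to 4.34). GDF15, a stress hormone, had 12299 normalized counts under MS7126 and 3878 under DMSO, and the cytokine IL11 had 692 normalized counts under MS7126 and 141 under DMSO. The peptide hormone gene ADM2 had 721 normalized counts under MS7126 and 89.0 under DMSO. GDF15, IL11 and ADM2 stood at 1.67 (SE 0.13), 2.30 (SE 0.24) and 3.02 (SE 0.27) in the authors' deposited table. VEGFA and LIF stood at 1.52 (SE 0.32) and 1.59 (SE 0.43) in the authors' deposited table, both higher, and CXCL8 at -0.72 (SE 0.72) did not pass.

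Chaperones of the endoplasmic reticulum had calls in both directions. Of 22 genes, 3 rose and 4 fell, with a median of 0.05 in the authors' deposited table. HSPA5, the chaperone BiP, had 10778 normalized counts under MS7126 and 13418 under DMSO. HSPA5 and its partner DNAJB9 stood at -0.32 (SE 0.14) and 0.74 (SE 0.31) in the authors' deposited table, neither past the test. CALR and HSP90B1 fell, at -0.92 (SE 0.13) and -0.65 (SE 0.19) in the authors' deposited table. The sensor genes ERN1 and ATF6 rose, at 1.67 (SE 0.33) and 1.07 (SE 0.22), with HERPUD1 at 1.04 (SE 0.18) in the authors' deposited table. Of 15 genes in a separate heat shock list, which includes the mitochondrial HSPE1, 5 were lower and none higher. HSPE1, HSPB1, HSP90AA1 and HSP90AB1 stood at -0.90 (SE 0.14), -0.80 (SE 0.16), -0.65 (SE 0.19) and -0.44 (SE 0.13) in the authors' deposited table, all lower. HSPA1A fell, at -0.58 (SE 0.14), and its near-identical neighbour HSPA1B was at -0.23 (SE 0.17) in the authors' deposited table, so the split of reads between them is uncertain.

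Genes of the NRF2 group, which guards against oxidants, rose in most cases. Of 23, 14 were higher and 2 lower, with a median of 0.75 in the authors' deposited table. SRXN1, which repairs peroxiredoxins, had 2761 normalized counts under MS7126 and 676 under DMSO, 2.03 (SE 0.15) in the authors' deposited table. The thioredoxin reductase gene TXNRD1 rose, at 1.63 (SE 0.18), as did the glutathione synthesis genes GCLC and GCLM, at 2.51 (SE 0.61) and 0.98 (SE 0.18) in the authors' deposited table. The aldo-keto reductases AKR1B10, AKR1C1, AKR1C2 and AKR1C3 stood at 2.44 (SE 0.29), 1.90 (SE 0.18), 1.66 (SE 0.18) and 1.05 (SE 0.15) in the authors' deposited table, all higher. The AKR1C genes are close copies whose reads may be split. NQO1, a quinone reductase, rose, at 0.79 (SE 0.13), as did the ferritin genes FTH1 and FTL, at 0.73 (SE 0.16) and 0.39 (SE 0.14) in the authors' deposited table. The 2 that fell were HMOX1, the heme oxygenase, at -0.62 (SE 0.20), and PRDX1 at -0.68 (SE 0.13) in the authors' deposited table. The pentose phosphate members PGD, TALDO1 and TKT stood between -0.22 (PGD) and 0.20 (TKT) in the authors' deposited table, none past the test. SLC7A11 belongs to this list and to the amino acid transporters. The antioxidant element letters TGACNNNGC were found for 4 of 16 genes of this list with a promoter entry (25%). Of the tested genes 19.8% held them, of those called higher 19.3% and of those called lower 19.8%. By the tests of the differences, 10 of the 22 compared were higher than under C24 and 2 lower, 10 higher than under MS7126N1 and 7 higher than under MS7126N2.

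TXNIP and ARRDC4, arrestin-like genes that respond to glucose through MondoA and ChREBP, rose. TXNIP had 1119.7 normalized counts under MS7126 and 288 under DMSO, and ARRDC4 had 439 normalized counts under MS7126 and 35.9 under DMSO. Their log2 fold changes were 1.96 (SE 0.27) and 3.61 (SE 0.35) in the authors' deposited table. Of the factor genes themselves MLXIP and MLX stood at 0.33 (SE 0.29) and 0.32 (SE 0.22), neither past the test, and MLXIPL fell, at -0.65 (SE 0.19), in the authors' deposited table. The carbohydrate element was found in the promoter window of TXNIP and in no other of the 8 genes of this list, against 1.07% of tested genes. The E-box CACGTG was found in 2 of the 8, ARRDC4 and MLX, against 12.6%. ARRDC4 differed by 3.49 (SE 0.77, 95% interval 1.99 to 4.99) from C24, by 3.54 (SE 0.72, 95% interval 2.13 to 4.94) from MS7126N1 and by 2.58 (SE 0.64, 95% interval 1.33 to 3.84) from MS7126N2.

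Many plasma proteins that hepatocytes secrete fell, though no group fell whole. Of 16 carrier proteins 10 fell and 2 rose, of 12 measured acute phase genes 9 fell, and of 13 apolipoproteins 7 fell in the authors' deposited table. Of 17 coagulation genes 8 fell and 1 rose, and of 16 complement genes 5 fell in the authors' deposited table. These lists overlap, so some lower genes are counted more than once. FGA, FGB and FGG are in the acute phase and coagulation lists. ORM1 is in the carrier and acute phase lists, and C3 in the acute phase and complement lists. HP (GRCh38, chr16:72054592-72061055, plus strand), haptoglobin, had 246 normalized counts under MS7126 and 3027 under DMSO, a log2 fold change of -3.62 (SE 0.16) in the authors' deposited table (adjusted p = 3.05e-107). Its partner in heme capture, hemopexin (HPX), had 87.2 normalized counts under MS7126 and 538 under DMSO, -2.63 (SE 0.41) in the authors' deposited table. The neighbour HPR, a close copy of HP, was at -2.68 (SE 0.31) in the authors' deposited table, and reads may be split between the 2. HP differed by -3.19 (SE 0.20, 95% interval -3.58 to -2.81) from C24, by -3.46 (SE 0.23, 95% interval -3.91 to -3.01) from MS7126N1 and by -3.18 (SE 0.22, 95% interval -3.62 to -2.74) from MS7126N2.

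The 3 fibrinogen chains, which are secreted as 1 complex, fell by like amounts. FGA had 5140.2 normalized counts under MS7126 and 14381 under DMSO, FGB had 1477 normalized counts under MS7126 and 3983 under DMSO and FGG had 3708 normalized counts under MS7126 and 9292 under DMSO. Their log2 fold changes in the authors' deposited table were -1.48 (SE 0.12), -1.43 (SE 0.15) and -1.33 (SE 0.18). Among clotting factors F11 fell, at -2.51 (SE 0.69), and F2, prothrombin, rose, at 0.45 (SE 0.14) in the authors' deposited table. F5 and F7 stood at -0.10 (SE 0.21) and 0.03 (SE 0.38) in the authors' deposited table and did not pass. PROS1, the anticoagulant protein S, fell, at -0.95 (SE 0.33), and SERPINC1, antithrombin, at -0.21 (SE 0.22) in the authors' deposited table, did not pass. Among complement genes C3 fell, at -0.87 (SE 0.14), as did CFI and MASP2, at -1.35 (SE 0.20) and -1.77 (SE 0.36) in the authors' deposited table. C5 was at 0.02 (SE 0.20) in the authors' deposited table.

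Apolipoproteins divided by member. APOA1, the main protein of high-density lipoprotein, had 27860.5 normalized counts under MS7126 and 101740.0 under DMSO. APOC3, which slows triglyceride clearance, had 663 normalized counts under MS7126 and 2863 under DMSO. Their log2 fold changes were -1.87 (SE 0.12) and -2.11 (SE 0.17) in the authors' deposited table, with APOH at -1.69 (SE 0.15). APOB, the scaffold of low-density lipoprotein, APOA2 and APOC1 stood at -0.23 (SE 0.12), -0.15 (SE 0.14) and -0.04 (SE 0.17) in the authors' deposited table, none past the test. APOE fell by less, with 30037 normalized counts under MS7126 and 41389 under DMSO, -0.46 (SE 0.12) in the authors' deposited table. Further carriers fell too. ALB, albumin, had 24014 normalized counts under MS7126 and 47034 under DMSO, -0.97 (SE 0.13) in the authors' deposited table. SERPINA1, antitrypsin, had 20642 normalized counts under MS7126 and 36942 under DMSO, -0.84 (SE 0.14) in the authors' deposited table. The 2 carriers that rose were AHSG, fetuin-A, and AMBP, the precursor of bikunin. AHSG had 17390.5 normalized counts under MS7126 and 11581 under DMSO, and AMBP had 15819 normalized counts under MS7126 and 11084 under DMSO. Their log2 fold changes in the authors' deposited table were 0.59 (SE 0.16) and 0.51 (SE 0.15). AFP, the fetal counterpart of albumin, was at -0.37 (SE 0.17) in the authors' deposited table and did not pass.

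**Figure D5:**
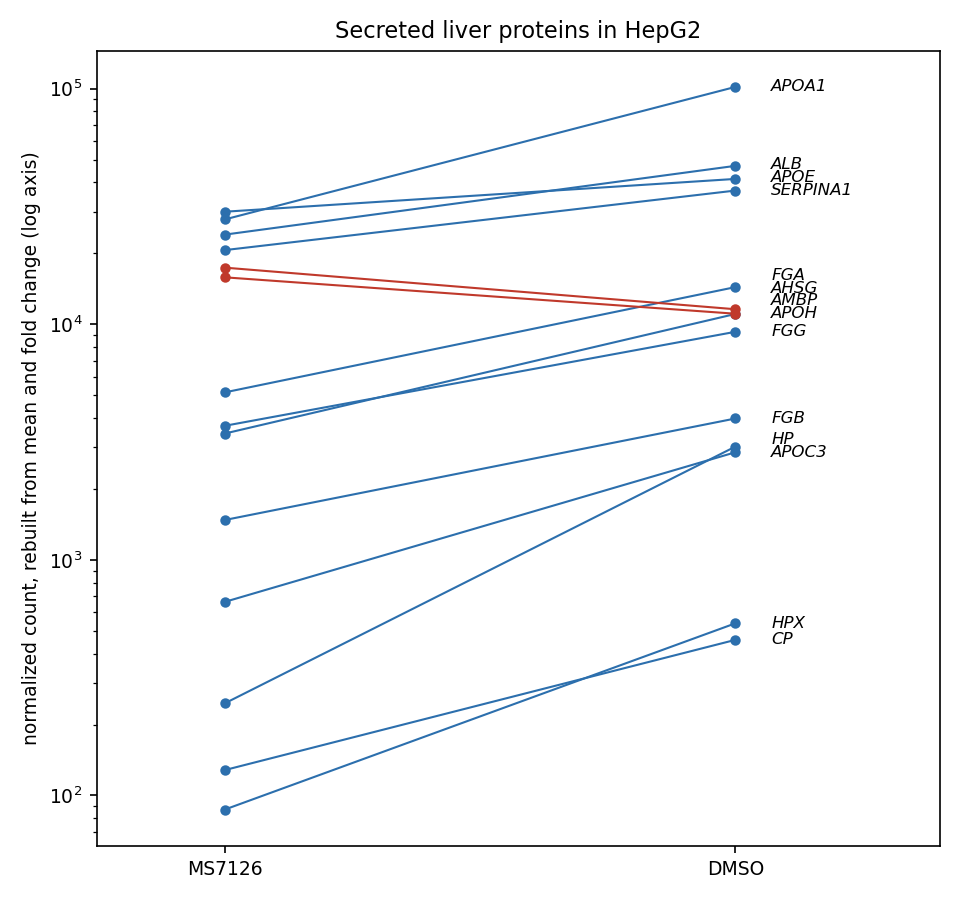
Normalized count (log axis), rebuilt from each gene's mean and fold change, under MS7126 (left) and DMSO (right) for 14 secreted liver proteins that passed the test, joined by a line, blue where lower and red where higher under MS7126. The line of HP is the steepest, with 246 under MS7126 and 3027 under DMSO, the fibrinogen lines run nearly parallel, and AHSG and AMBP are higher under MS7126.

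Transcription factors of hepatocyte identity had calls in both directions. Of 19 measured, 4 rose and 3 fell, with a median of -0.08 in the authors' deposited table. FOXA2 and CEBPA stood at 0.15 (SE 0.15) and 0.07 (SE 0.21) in the authors' deposited table and did not pass. FOXA1 fell, at -0.94 (SE 0.22), and its relative FOXA3 rose, at 0.84 (SE 0.21), in the authors' deposited table. CEBPB, which also belongs to the stress response, had 4236 normalized counts under MS7126 and 1455 under DMSO, 1.54 (SE 0.15) in the authors' deposited table. NR1H4, the bile acid receptor FXR, had 63.4 normalized counts under MS7126 and 251 under DMSO. NR1H4 and ONECUT1 fell, at -1.99 (SE 0.38) and -1.88 (SE 0.60) in the authors' deposited table. Other liver enzymes that fell were SULT2A1, a steroid sulfotransferase, at -2.75 (SE 0.22), and CPS1, the entry enzyme of the urea cycle, at -1.18 (SE 0.28) in the authors' deposited table. CYP1A1, a target of the aryl hydrocarbon receptor, rose, at 1.64 (SE 0.45), with AHR itself at 0.92 (SE 0.27) in the authors' deposited table. TIPARP and AHRR, of the same list, did not pass. Of 10 drug metabolism genes measured, 3 rose and 1 fell. Among glucose genes PCK2, the mitochondrial PEP carboxykinase, rose, at 1.39 (SE 0.15), as did the transporter gene SLC2A1, at 1.29 (SE 0.25), among 3 higher and 2 lower of 24 in the authors' deposited table.

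Genes of cell division were lower. In the authors' deposited table, 20 of 30 mitosis genes and 19 of 38 DNA replication genes fell and none rose, with medians of -0.78 and -0.74. Negative values were found for 29 and 37 of them, and TTK, at 0.12 (SE 0.52), and MCM4, at 0.54 (SE 0.58) in the authors' deposited table, were the 2 with positive ones. CDK1, the mitotic kinase, had 377 normalized counts under MS7126 and 846 under DMSO, and MKI67, the proliferation antigen, had 571 normalized counts under MS7126 and 1373 under DMSO. They stood at -1.17 (SE 0.20) and -1.27 (SE 0.24) in the authors' deposited table. CENPE, a kinetochore motor, was the lowest of the mitosis list at -1.89 (SE 0.19), followed by KIF23 and UBE2C at -1.42 (SE 0.35) and -1.42 (SE 0.21) in the authors' deposited table. PLK1 and CENPA stood at -0.34 (SE 0.22) and -0.24 (SE 0.30) in the authors' deposited table and did not pass.

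The polymerase subunit genes POLD1 and POLE2 were the lowest of the replication list, at -1.60 (SE 0.24) and -1.60 (SE 0.42), with the ligase LIG1 at -1.51 (SE 0.26) and the primase PRIM1 at -1.52 (SE 0.48) in the authors' deposited table. PCNA, the sliding clamp, fell, at -0.99 (SE 0.16) in the authors' deposited table. Of the 6 MCM helicase genes MCM3, MCM5 and MCM7 fell, at -0.84 (SE 0.15), -0.97 (SE 0.16) and -0.51 (SE 0.16) in the authors' deposited table. MCM2, MCM4 and MCM6 stood at -0.75 (SE 0.35), 0.54 (SE 0.58) and -0.65 (SE 0.26) in the authors' deposited table and did not pass. Of 19 DNA repair genes 12 fell and 1 rose. FANCD2 and the checkpoint kinase gene CHEK2 fell, at -1.83 (SE 0.53) and -1.44 (SE 0.38), and the damage kinase gene ATM rose, at 0.74 (SE 0.26) in the authors' deposited table. CDK1 was also lower than under C24, MS7126N1 and MS7126N2, with differences of -1.27 (SE 0.26, 95% interval -1.79 to -0.76), -1.37 (SE 0.27, 95% interval -1.90 to -0.83) and -1.55 (SE 0.29, 95% interval -2.11 to -0.99). Over the mitosis list 10 of 30 were lower than under C24, 15 lower than under MS7126N1 and 11 lower than under MS7126N2, and none higher.

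The CHR element, TTTGAA, which the DREAM complex reads in genes of late cell cycle, is shown in 5 mitosis promoters. The stretches are from RefSeq (GRCh38.p14), 5′ to 3′ on the strand of the gene, with the first match of TTTGAA or its reverse complement in capitals and nothing past the start. They lie at chr10:92593076-92593129 (plus strand) for KIF11, chr15:69414268-69414325 (plus strand) for KIF23, chr10:128126439-128126496 (minus strand) for MKI67, chr7:36389810-36389861 (plus strand) for ANLN, chr15:90994536-90994581 (minus strand) for PRC1.
KIF11: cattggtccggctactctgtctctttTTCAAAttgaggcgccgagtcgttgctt
KIF23: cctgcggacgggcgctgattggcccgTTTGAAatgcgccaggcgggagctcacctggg
MKI67: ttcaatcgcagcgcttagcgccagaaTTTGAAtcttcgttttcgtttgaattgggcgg
ANLN: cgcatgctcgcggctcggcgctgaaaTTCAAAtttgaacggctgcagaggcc
PRC1: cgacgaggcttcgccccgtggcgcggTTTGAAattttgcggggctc
Of 25 mitosis genes with a promoter entry 18 held the element on either strand, against 1 of 32 replication genes and 13.6% of the tested genes. The E2F letters TTTCCCGC showed the opposite split, 9 of 32 replication genes and 1 of 25 mitosis genes, against 3.27% of the tested genes. CCAAT was found in 19 of the 25 and 19 of the 32. Of the 18 mitosis genes with TTTGAA 10 were called lower, beside 20 of all 30 mitosis genes. Of the 9 replication genes with the E2F letters 8 were called lower, beside 19 of all 38 replication genes. Over all tested genes, 133 of the 1291 with TTTGAA and 40 of the 311 with the E2F letters were called lower.

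Genes that halt the cycle or lead to cell death rose in part. CDKN1A, the inhibitor p21, had 2802 normalized counts under MS7126 and 1208 under DMSO, 1.21 (SE 0.17) in the authors' deposited table. It was 1 of 10 higher genes among 23 p53 targets, and none was lower. MDM2, FAS and SESN1, 3 other p53 targets, stood at -0.03 (SE 0.14), 0.07 (SE 0.52) and -0.20 (SE 0.25) in the authors' deposited table and did not pass. The members that rose include GADD45B at 1.60 (SE 0.30), BBC3 at 1.10 (SE 0.22), TNFRSF10B at 0.84 (SE 0.17) and AEN at 0.95 (SE 0.16) in the authors' deposited table. Of 15 BCL2 family genes 5 rose and 1 fell. The BH3-only genes PMAIP1 and BIK stood at 2.15 (SE 0.39) and 2.03 (SE 0.53), the protective BCL2L1 at 0.50 (SE 0.12), and BOK fell, at -0.64 (SE 0.19) in the authors' deposited table. Of 20 measured genes of the list of CDK inhibitors and G1 cyclins 1 rose, CDKN1A, and 4 fell. E2F2, CCND2 and the CDK inhibitor gene CDKN2C fell, at -1.86 (SE 0.46), -1.72 (SE 0.53) and -1.17 (SE 0.33) in the authors' deposited table. CCND1 and CDK4, partners in entry into the cycle, stood at 0.16 (SE 0.12) and 0.09 (SE 0.17) in the authors' deposited table and did not pass.

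Immediate early genes rose in 13 of 21 measured cases and none fell, with a median of 1.05 in the authors' deposited table. EGR1 had 569 normalized counts under MS7126 and 92.7 under DMSO, and JUN had 2309.7 normalized counts under MS7126 and 947 under DMSO. These factor genes stood at 2.62 (SE 0.26) and 1.29 (SE 0.17) in the authors' deposited table. The feedback inhibitors of the ERK pathway SPRY4, DUSP4, DUSP5 and DUSP6 stood at 2.09 (SE 0.17), 2.03 (SE 0.45), 1.37 (SE 0.39) and 1.05 (SE 0.17) in the authors' deposited table, all higher. FOS, at 2.06 (SE 1.09), and MYC, at 0.90 (SE 0.35), did not pass in the authors' deposited table. Of 17 genes of the YAP and TGF-beta lists 8 rose and none fell, with TGFB1 at 1.49 (SE 0.20), ITGA2 at 1.04 (SE 0.19) and CTGF at 0.67 (SE 0.24) in the authors' deposited table.

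Among Polycomb genes and genes held silent by EZH2 in other cells there were calls in both directions. Of 12 measured PRC2 subunits and partners PHF1 rose, at 0.87 (SE 0.25), and RBBP4 fell, at -0.57 (SE 0.17) in the authors' deposited table. PHF1 had the only positive value of the 12, and the other 11 were below 0, with a median of -0.28 in the authors' deposited table. The core subunit genes SUZ12 and EED and the EZH2 relative EZH1 stood at -0.27 (SE 0.21), -0.02 (SE 0.54) and -0.00 (SE 0.55) in the authors' deposited table. Of 19 genes of PRC1 and its CBX readers 4 rose and 1 fell, with 9 values above 0 and 10 below. RNF2, a ubiquitin ligase subunit, and PHC2 rose, at 1.10 (SE 0.26) and 0.90 (SE 0.15), and CBX2 fell, at -0.87 (SE 0.33) in the authors' deposited table. Of 13 measured genes that EZH2 is known to silence in other cells, 2 rose and 3 fell, with 5 values above 0 and 8 below, and the median was -0.37 in the authors' deposited table. IGFBP3 and RASSF1 rose, at 3.99 (SE 0.67) and 1.52 (SE 0.46) in the authors' deposited table. DKK1, TIMP3 and TNFSF10 fell, at -1.45 (SE 0.21), -0.92 (SE 0.18) and -2.36 (SE 0.82) in the authors' deposited table. IGFBP3 had 163 normalized counts under MS7126 and 10.3 under DMSO, and its difference from C24, 3.69 (SE 1.39, 95% interval 0.97 to 6.41), did not pass the threshold. CDKN2A, a long-studied Polycomb target, was at 0.52 (SE 0.25) in the authors' deposited table and did not pass. Only 8 of 35 HOX genes reached a mean of 10. Of these 7 had negative values, and the 1 call, HOXD1, has an SE of 2.04.

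The ribosomal protein and proteasome genes, used by every cell, had medians near 0. Of 34 ribosomal protein genes 1 rose and 1 fell, RPL7 at 0.48 (SE 0.16) and RPS9 at -0.33 (SE 0.12) in the authors' deposited table. Of 31 proteasome genes 3 rose and 1 fell, and the medians of the 2 lists were 0.01 and -0.01 in the authors' deposited table. None of the 13 protein genes of the mitochondrial genome passed, and all 13 had negative values, with a median of -0.36 in the authors' deposited table. Of the 13, 1 had an unadjusted p under 0.05. The corresponding medians in the tables that share the DMSO libraries were -0.78 for C24, -0.48 for MS7126N1 and -0.18 for MS7126N2. Nuclear genes of the respiratory chain had 2 higher and 4 lower of 28, with a median of -0.12 in the authors' deposited table. Of 20 genes of ribosome biogenesis 6 rose and none fell, and 15 of the 20 values were above 0, with a median of 0.15 in the authors' deposited table. EEF1A1, a translation factor with many processed copies, had 87220.5 normalized counts under MS7126 and 153208 under DMSO. Among the 10 called genes with the highest means EEF1A1 fell, at -0.81 (SE 0.11), and TPT1 rose, at 0.40 (SE 0.13) in the authors' deposited table.

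Among called genes whose mean was 100 or more, the highest value was that of KLHDC7B, at 8.01 (SE 1.09) in the authors' deposited table. IGFBP1 came next, followed by AQP3, a glycerol and water channel, at 4.32 (SE 0.35) in the authors' deposited table. ARRDC4, ANGPTL8, ASNS and ADM2, described above, were among the 12 highest. PLA2G12A, a secreted phospholipase, stood at 3.50 (SE 0.30), GPN2 at 3.32 (SE 0.26), the hepatokine INHBE at 3.30 (SE 0.26), the tyrosine aminotransferase TAT at 3.10 (SE 0.48) and OSCAR at 3.02 (SE 0.43) in the authors' deposited table. At the other end RAB12, SYTL4 and HOXD1 stood at -10.46 (SE 1.50), -8.09 (SE 2.15) and -5.89 (SE 2.04) in the authors' deposited table. POLG, the mitochondrial DNA polymerase, stood at -4.23 (SE 0.48), PCDHB2 at -4.18 (SE 0.38), RGPD5 at -4.10 (SE 0.30), PIGA at -4.10 (SE 0.45) and the clock gene PER1 at -3.83 (SE 0.47) in the authors' deposited table. HP was again among the 12 lowest, as were SAA4, a serum amyloid gene, at -3.52 (SE 0.45), and UBD, a ubiquitin-like modifier, at -3.07 (SE 0.26) in the authors' deposited table. KLHDC7B, RAB12, SYTL4 and HOXD1 are the 4 of 1848 such genes with an SE above 1, so the sizes of their changes are uncertain. RAB12 had a rebuilt level of 0.169 under MS7126 and 238 under DMSO, and KLHDC7B 279.7 under MS7126 and 1.09 under DMSO, so 1 group was close to 0 in each. RGPD5 has near-identical copies in the genome, and its reads may be shared with them.

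Some of these extremes were as large under the other compounds, which share the DMSO libraries with MS7126. PER1 stood at -3.83 with MS7126, -4.19 (SE 0.40) with C24, -4.93 (SE 0.42) with MS7126N1 and -4.43 (SE 0.43) with MS7126N2 in the authors' deposited tables. PIGA stood at -4.10 with MS7126, -3.47 (SE 0.37) with C24, -3.58 (SE 0.37) with MS7126N1 and -1.27 (SE 0.92) with MS7126N2 in the authors' deposited tables. For such genes a trait of the DMSO libraries and an effect of the compounds cannot be told apart. POLG gave -2.25 (SE 0.40), -2.73 (SE 0.35) and -1.47 (SE 1.62) with C24, MS7126N1 and MS7126N2 in the authors' deposited tables. RGPD5 gave -2.15 (SE 1.51), -0.96 (SE 2.01) and -4.60 (SE 0.31) in the authors' deposited tables. In the same order PLA2G12A gave 2.45 (SE 0.30), 2.31 (SE 0.37) and 0.64 (SE 0.35) in the authors' deposited tables. PCDHB2 gave -0.49 (SE 1.45), -3.73 (SE 0.37) and -1.50 (SE 1.26) in the authors' deposited tables. HOXD1 gave -3.97 (SE 1.99), -1.87 (SE 2.29) and -5.39 (SE 2.06) in the authors' deposited tables. RAB12 stood at -10.50 (SE 1.50) with C24 but at -0.07 (SE 0.27) and -0.97 (SE 3.20) with MS7126N1 and MS7126N2 in the authors' deposited tables. SYTL4 was at -10.33 (SE 2.80) with MS7126N2 but at -0.31 (SE 1.46) and 0.08 (SE 1.42) with C24 and MS7126N1 in the authors' deposited tables. The urea cycle gene ASL, higher under MS7126 at 2.91 (SE 0.46), stood at 2.32 (SE 0.27), 1.91 (SE 0.58) and 0.30 (SE 0.35) with C24, MS7126N1 and MS7126N2 in the authors' deposited tables.

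Over all genes, MS7126 differed from C24 in 820 genes, 325 higher and 495 lower under MS7126, and from MS7126N1 in 622, 250 higher and 372 lower. From MS7126N2 it differed in 332 genes, 114 higher and 218 lower. IGFBP1, ASNS, GPN2 and SLC7A11 were among the 8 most raised over C24 and over MS7126N1, and HP, SAA4 and GSTA1 among the 8 lowest against all 3. SMOX, the spermine oxidase, was higher than under C24 by 2.94 (SE 0.28, 95% interval 2.39 to 3.49) and than under MS7126N1 by 2.71 (SE 0.28, 95% interval 2.16 to 3.26). GSTA1, a glutathione transferase, was lower than under all 3, with differences of -3.74 (SE 0.52, 95% interval -4.76 to -2.72) from C24, -2.75 (SE 0.55, 95% interval -3.82 to -1.67) from MS7126N1 and -2.56 (SE 0.57, 95% interval -3.68 to -1.45) from MS7126N2. CBX5, the heterochromatin protein HP1 alpha, stood at -0.62 (SE 0.18) with MS7126 and at 2.23 (SE 0.20) and 2.58 (SE 0.42) with C24 and MS7126N1 in the authors' deposited tables, on both sides of 0. With MS7126N2, CBX5 was at 0.08 (SE 0.18) in the authors' deposited table. ZNF778 was higher than under C24 by 3.71 (SE 0.63, 95% interval 2.47 to 4.95) although it stood at -0.27 (SE 0.52) with MS7126 in the authors' deposited table, not past the test. TNFRSF12A, a receptor of the TNF family, was higher than under MS7126N1 by 2.79 (SE 0.75, 95% interval 1.32 to 4.26). GTPBP2 was higher than under MS7126N2 by 1.92 (SE 0.47, 95% interval 1.01 to 2.84), and CEP295 by 2.12 (SE 0.66, 95% interval 0.82 to 3.41). At the other end SMIM24 differed from C24 by -3.01 (SE 0.26, 95% interval -3.52 to -2.50), and AGXT and NFATC2IP differed from MS7126N2 by -2.19 (SE 0.53, 95% interval -3.22 to -1.15) and -2.28 (SE 0.32, 95% interval -2.89 to -1.66). The MS7126 and comparison tables share DMSO libraries, which the SE of a difference ignores, and with the shared part taken off the counts were 1798, 1536 and 959.

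The 3 comparison compounds were not alike beside MS7126. For ASNS the log2 fold changes were 3.29 (SE 0.17) with MS7126, 0.37 (SE 0.21) with C24, -0.00 (SE 0.21) with MS7126N1 and 1.91 (SE 0.18) with MS7126N2 in the authors' deposited tables. MS7126 exceeded MS7126N2 at ASNS by 1.39 (SE 0.25, 95% interval 0.91 to 1.87) and MS7126N1 by 3.30 (SE 0.27, 95% interval 2.76 to 3.84). For PPP1R15A and ATF3 it exceeded MS7126N2 by 2.21 (SE 0.32, 95% interval 1.58 to 2.84) and 2.14 (SE 0.63, 95% interval 0.91 to 3.38), with MS7126N2 itself at 0.08 (SE 0.26) and 0.04 (SE 0.49) in the authors' deposited tables. The medians over the ISR regulators were 1.86 for MS7126, 0.15 for C24, 0.01 for MS7126N1 and 0.64 for MS7126N2 in the authors' deposited tables. Over the mitosis genes they were -0.78 for MS7126, -0.05 for C24, 0.10 for MS7126N1 and 0.02 for MS7126N2 in the authors' deposited tables. Of 19 genes of amino acid synthesis 8 were higher and 2 lower than under C24, 10 higher than under MS7126N1 and 2 higher than under MS7126N2.

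MS7126 was also given at 5 uM to Huh7, another liver cancer line, for 24 h by 1 label of those samples, while another label names a longer time. The values are therefore set side by side without a test. In Huh7 17.9% of 15560 genes were higher and 16.7% lower in the authors' deposited table. The mevalonate genes had 7 of 9 lower in HepG2 and 8 of 9 lower in Huh7, with medians of -1.69 and -1.26 in the authors' deposited tables. The sterol enzymes had 12 of 12 lower in both, with medians of -1.28 and -1.12 in the authors' deposited tables. The ISR regulators had 14 higher in HepG2 and 16 higher in Huh7 of 19, and the cytosolic tRNA synthetases 12 and 14 of 19. The NRF2 list had opposite signs in its medians, with 14 higher and 2 lower of 23 in HepG2, and 3 higher and 13 lower of 22 in Huh7. The medians were 0.75 in HepG2 and -0.51 in Huh7 in the authors' deposited tables. SRXN1 stood at 2.03 (SE 0.15) in HepG2 and 0.26 (SE 0.11) in Huh7, NQO1 at 0.79 (SE 0.13) and -0.51 (SE 0.16), and AKR1C1 at 1.90 (SE 0.18) and -0.80 (SE 0.13) in the authors' deposited tables. Chaperones of the endoplasmic reticulum had 3 higher and 4 lower of 22 in HepG2 and 3 higher and 13 lower in Huh7. APOC3 stood at -2.11 (SE 0.17) in HepG2 and -0.37 (SE 0.16) in Huh7, and AHSG at 0.59 (SE 0.16) and -0.35 (SE 0.11), in the authors' deposited tables.

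Calls were more frequent at high means, at high GC content and in short genes. In the lowest quartile of tested genes by mean count 2.41% were higher and 2.2% lower, and in the highest quartile 11.9% and 15.1%. By GC content of the longest transcript, among 11887 tested genes with an entry in GENCODE 29, 6.93% were higher and 5.82% lower in the lowest quartile, and 10.2% and 10.7% in the highest. By genomic span, 8.51% were higher and 10.5% lower in the shortest quartile, and 6.26% and 6.02% in the longest. Of protein-coding genes 8.04% were higher and 8.54% lower, and of 230 processed pseudogenes 1.74% each way.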

How the data were processed

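HepG2 libraries of MS7126 and DMSO (2 each) and, for comparison, of C24, MS7126N1 and MS7126N2 (2 each) entered tables that the authors deposited, 1 per compound against DMSO. STAR 2.4.2, Salmon and the GRCh38 build are named in the submitters' processing notes. Per the file headers, each table holds a mean normalized count per gene (a signal averaged over the libraries by the authors), a log2 fold change with its SE, a test score (the fold change over its SE), a p-value and an adjusted p as deposited by the authors. No value per library was used, and 0 columns of per-sample values were set aside. The depth of single libraries is not given in the sources used here, so precision rests on the deposited SE.

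Genes with a mean of at least 10 were kept. A gene was called at the authors' adjusted p under 0.05; genes without an adjusted p were not called. Group levels were rebuilt from mean and fold change, assuming equal weight of both groups. Differences between MS7126 and each other compound were tested as difference over the root of the summed squared SEs, two-sided, with Benjamini-Hochberg adjustment over the genes of 3 pairs. This step was tested on simulated data. The simulated fold changes were drawn independently for each compound, so that test did not cover the sharing of DMSO libraries. Normal 95% intervals were used.

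The genes named are EZH2, the 12 highest and 12 lowest fold changes among called genes whose mean was 100 or more, the 8 largest differences each way per compound, the 10 called genes with the highest means, and members of 62 gene lists, called or not. The members and lists were chosen with earlier results of these data known. Some genes covered by these rules are not reported here. Older symbols were matched through gene name tables, and promoters, on RefSeq GRCh38.p14, were searched for short motifs. Gene positions are from GENCODE 29 on GRCh38. Python 3.11.15, numpy 2.4.6, pandas 2.3.3, scipy 1.17.1 and matplotlib 3.10.9 were used. Alternatives were another threshold, another filter on the mean, recomputed adjustment, centring on the median, removal of genes with an SE above 1, and an estimate of the covariance from shared DMSO libraries.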

Additional observations from a re-analysis of the deposited data

How the results depend on the processing

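At an adjusted p under 0.01 in place of 0.05, 583 genes were higher and 678 lower under MS7126, and 526, 365 and 188 genes differed from C24, MS7126N1 and MS7126N2. With the covariance of the shared DMSO libraries taken off, estimated as 0.5 of the smaller squared SE, those differences numbered 1798, 1536 and 959, since the SE of each difference is then smaller by construction. Under the other alternatives run (no filter on the mean or a minimum of 100, recomputed adjustment, centring on the median, removal of genes with an SE above 1), higher genes ranged between 882 and 962 and lower genes between 966 and 1086. Of 898 genes named by rule or held by a list, 80 called at 0.05 did not pass at 0.01. Those named in the text are ACSL3, ATM, CBX2, CCND2, CLOCK, CRY1, CTGF, EIF2AK3, F2, FTL, HK2, HMOX1, HOXD1, HSP90AB1, MCM7, MT1E, MT1X, NFATC2IP, NKD1, NR1H2, ONECUT1, PRIM1, PROS1, PSMB8, PSPH, RBBP4, RPL7, RPS9, SLC7A5, SQSTM1, TBX3, TNFSF10, TPT1, TUBA4A and TUBB6, with PRC1, whose promoter is shown. With recomputed adjustment 5 calls were lost, CBX2 among them, and after centring 4 were lost, FTL among them, and 5 gained. No called value changed sign. After centring, 7 uncalled values near 0 did, HADHA at -0.0076, BCL2 at -0.0064, IRS2 at -0.0052, and 4 others at -0.00064, -0.0049, -0.012 and -0.013 on the log2 scale. Among list summaries (higher count, lower count and median), 27 moved at 0.01, 9 at a minimum mean of 100, 2 with recomputed adjustment, 2 after centring, 2 without genes of SE above 1 and 1 without the filter on the mean. No paired analysis was possible because the deposited tables give no value per library, and for the same reason no replicate could be left out. Depth limits the genes of low mean, where the SE is widest, and a group level near 0 leaves the size of a change uncertain.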

Other observations

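Several groups outside the comparisons above also held called genes. Among all 12923 tested genes 7.44% were higher and 8.06% lower, and several counts in this section lie near those shares. Of 11 measured tubulin genes 5 fell and 2 rose in the authors' deposited table, with TUBA1A at -1.19 (SE 0.23) and TUBB4B at -0.94 (SE 0.14) among the lower and TUBA4A at 1.33 (SE 0.46) and TUBB6 at 0.53 (SE 0.19) the higher. Tubulin genes are close copies, and their reads may be split. Of 16 clock genes the repressor CRY1 and the nuclear receptor NR1D1 rose, at 1.00 (SE 0.37) and 1.54 (SE 0.30), and PER1 and CLOCK fell, CLOCK at -0.57 (SE 0.20), in the authors' deposited table. Of 26 lysosome and autophagy genes 4 rose and 1 fell. MAP1LC3B and GABARAPL1, which coat autophagosomes, rose, at 1.78 (SE 0.19) and 1.42 (SE 0.35), as did the cargo receptor SQSTM1, at 0.70 (SE 0.24), in the authors' deposited table. Of 10 measured genes of metallothioneins, which bind zinc and copper, and of zinc handling, 3 were lower and none higher. The 3 were the metallothionein genes MT1G at -1.50 (SE 0.23), MT1X at -0.71 (SE 0.25) and MT1E at -0.59 (SE 0.18) in the authors' deposited table, again close copies. Of 9 genes of the insulin-like growth factor axis IGF2 fell, at -1.07 (SE 0.20), and IGFBP4 rose, at 0.73 (SE 0.13), beside IGFBP1 and IGFBP3, in the authors' deposited table. In the urea cycle, ASL and NAGS rose, NAGS at 1.75 (SE 0.52), and CPS1 fell, in the authors' deposited table.

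Antigen presentation genes had 1 higher and 3 lower of 12, with the immunoproteasome subunits PSMB8 and PSMB9 at -0.67 (SE 0.23) and -1.54 (SE 0.43) in the authors' deposited table. None of 13 interferon-stimulated genes passed the authors' adjusted p in either direction, and 1 of them had an unadjusted p under 0.05. Of 12 genes of NF-kB and its cytokines the inhibitor gene NFKBIA fell, at -1.03 (SE 0.16) in the authors' deposited table. Of 13 Wnt targets NOTUM, NKD1 and TBX3 rose, at 0.80 (SE 0.14), 0.51 (SE 0.18) and 0.49 (SE 0.17), and DKK1 fell, in the authors' deposited table. Of 17 hypoxia genes 3 rose, VEGFA, SLC2A1 and HK2, and 1 fell, EPO, the erythropoietin gene, at -2.15 (SE 0.64) in the authors' deposited table. Of 13 FOXO targets IGFBP1 and TRIB1 rose, TRIB1 at 1.23 (SE 0.19), and IRS2 and KLF15 stood at 0.01 (SE 1.41) and 0.04 (SE 0.39) in the authors' deposited table. Of 9 bile acid genes NR1H4 and CYP27A1 fell, CYP27A1 at -0.60 (SE 0.15), and of 10 biliary and progenitor genes KRT19 and SPP1 fell, at -0.93 (SE 0.12) and -0.69 (SE 0.18), in the authors' deposited table.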
